A study of Mus musculus with 14 samples.

Results

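The 305 sites described here are places where the transcription factor ONECUT2 was mapped far from gene ends and where the surrounding histone acetylation at least doubled after the M cell protocol. They are 305 of the 7268 sites in the authors' ONECUT2 comparison, and of 2201 distal sites that lie in a region measured for H3K27ac. A site was taken when it lay over 2 kb from both ends of every protein-coding gene (mm10) and shared at least 1 bp with an H3K27ac region of 2000 bp. That region had to average at least 10 CPM, the count as a share of all counts in the library's regions scaled to 1e6, in the RANKL libraries and at least 2 times the mean of the ENR libraries. The sites, called doubling sites below, fall in 303 regions, called doubling regions. H3K27ac values therefore chose the sites, and the H3K27ac difference between the arms is a description of the choice and not a result.

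All libraries came from small intestinal organoids of the same line (line26, wild type, Lgr5GFPDTR/+), derived from 1 female mouse, and 3 independent differentiation experiments gave the replicates of each arm. The spread between libraries is thus the spread between experiments on 1 line. RANKL organoids first spent 3 days in ENR medium, named for its EGF, Noggin and R-spondin, with valproic acid at 1.5 mM, which blocks histone deacetylases, and the Wnt pathway activator CHIR99021 at 3 µM. They then had 1 day in ENR medium and RANKL at 100 ng/mL, and their labels give day 6. Control organoids, also labelled day 6, were kept in ENR medium, and the difference between the arms is that of the whole protocol. H3K27ac and ONECUT2 were each profiled in 3 RANKL and 3 ENR libraries by ChIPmentation, a chromatin immunoprecipitation whose adapters are inserted on the beads by Tn5. H3K27ac libraries held 2745451 to 3902301 reads in regions in the RANKL arm and 5434172 to 9160267 in the ENR arm.

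H3K27ac, acetylation of lysine 27 of histone H3, marks active promoters and enhancers, and away from gene ends it is commonly used to find active enhancers. ONECUT2 is a transcription factor with a cut domain and a homeodomain that binds a short AT-rich sequence, and it is known from the intestine, liver and nervous system. RANKL binds its receptor RANK on intestinal epithelial cells, signals through TRAF adaptors to NF-kB, and drives the formation of microfold (M) cells, which carry antigen across the epithelium. In organoids that mix cell types, more cells with an active enhancer and more acetylation per cell cannot be told apart.

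Sequence was at hand for 5 doubling sites, those that overlap the promoter of a long non-coding RNA gene (lncRNA), though not always its start. Of it, 4 stretches are shown so that the letters under ONECUT2 sites can be read beside their values. Each is the part of a RefSeq promoter (GRCm38.p6, the mm10 assembly; 250 bases before and 50 after the start) that lies within the site, on the strand of the lncRNA. Capitals mark the ONECUT core motif, searched as ATCAAT and ATCGAT on both strands. The stretches are chr9:64049579-64049810 (+ strand) for 1110036E04Rik, chr3:104360269-104360568 (- strand) for Gm5546, chr7:35086224-35086479 (+ strand) for Gm35611, and chr14:18463360-18463604 (+ strand) for Gm32587.
1110036E04Rik: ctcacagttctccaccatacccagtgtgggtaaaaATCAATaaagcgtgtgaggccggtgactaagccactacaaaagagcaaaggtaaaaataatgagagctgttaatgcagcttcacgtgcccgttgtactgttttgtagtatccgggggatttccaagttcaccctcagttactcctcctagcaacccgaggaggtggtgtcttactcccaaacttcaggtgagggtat
Gm5546: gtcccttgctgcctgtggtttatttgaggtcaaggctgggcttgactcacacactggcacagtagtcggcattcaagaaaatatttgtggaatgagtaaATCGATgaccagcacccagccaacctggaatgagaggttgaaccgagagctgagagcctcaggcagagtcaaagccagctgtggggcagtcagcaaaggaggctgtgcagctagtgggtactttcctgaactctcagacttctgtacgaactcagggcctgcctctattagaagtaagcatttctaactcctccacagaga
Gm35611: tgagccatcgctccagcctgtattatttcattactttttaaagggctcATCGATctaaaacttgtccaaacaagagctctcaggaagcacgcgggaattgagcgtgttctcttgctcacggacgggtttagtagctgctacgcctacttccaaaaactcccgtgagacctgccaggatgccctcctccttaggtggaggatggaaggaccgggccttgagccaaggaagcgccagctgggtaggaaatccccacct
Gm32587: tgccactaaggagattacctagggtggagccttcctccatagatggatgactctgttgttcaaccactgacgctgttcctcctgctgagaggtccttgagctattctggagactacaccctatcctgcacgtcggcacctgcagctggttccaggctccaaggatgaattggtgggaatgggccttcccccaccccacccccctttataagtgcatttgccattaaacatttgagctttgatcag

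The first 3 stretches hold 1 match each and the Gm32587 stretch holds none. Over whole promoters of 300 bases, 4 of the 7 that overlap a doubling site held the motif, and 2 of those 4 are overlapping promoters of Gm35611 that share a single match. Among promoters that overlap other distal sites the motif was in 34 of 78 (43.6%), against 10.3% of all 11588 lncRNA promoters and 8.40% of all 32851 promoters in the table. With 7 promoters at 5 sites, the doubling sites cannot be set apart from other ONECUT2 sites by this motif, and a missing match says only that these letters are not in the window.

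The site at the 1110036E04Rik promoter, 27.3 kb from Smad6 (an inhibitory SMAD of TGF-beta and BMP signalling), had the strongest H3K27ac of the 5. Its region held 121.7, 114.4 and 107.4 CPM in the RANKL libraries and 37.7, 40.9 and 35.9 CPM in the ENR libraries. In the authors' deposited table its ONECUT2 level was 264 normalised reads in RANKL organoids and 76.1 in ENR organoids (log2 fold 1.77). At Gm5546 the RANKL libraries held 76.1, 80.6 and 65.1 CPM and the ENR libraries 32.0, 31.9 and 35.3 CPM. Both regions thus already had acetylation in ENR medium. The ONECUT2 level of the Gm5546 site was 47.4 reads in RANKL and 4.55 in ENR organoids in the authors' deposited table. The region of the Gm32587 site was close to the bottom of the scale in ENR, with 29.5, 24.3 and 28.2 CPM in RANKL libraries and 2.76, 5.46 and 5.38 CPM in ENR libraries. Every RANKL library lay above every ENR library at these 3 sites, as in 302 of the 303 doubling regions and 25.0% of all regions. That follows from the rule. At the Gm32587 site the authors' deposited table lists 16.8 ONECUT2 reads in RANKL organoids and 1.96 in ENR organoids, a log2 fold of 2.74.

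The doubling regions had a median of 26.4 CPM of H3K27ac in RANKL organoids and 6.14 CPM in ENR organoids, with region means of 10.0 to 146.6 CPM in RANKL and 1.91 to 48.1 CPM in ENR organoids. The ratio of means had a median of 3.34, with quartiles at 2.49 and 5.39 and a largest value of 27.7, beside a median of 1.12 over all 55050 regions. It was between 2 and 3 in 128 regions, between 3 and 5 in 87, between 5 and 10 in 61, and 10 or more in 27. Most of the regions were weak in ENR medium, 114 of them under 5 CPM and 110 between 5 and 10 CPM, but 22 had 20 CPM or more. Together they took 0.987%, 1.00% and 0.993% of the reads of RANKL libraries 1 to 3 and 0.256%, 0.279% and 0.255% of those of ENR libraries 1 to 3.

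Of all 55050 regions, 5.72% met the acetylation part of the rule. By edgeR's quasi-likelihood test with Benjamini-Hochberg adjustment over 54765 regions, 303 of 303 doubling regions were called higher at an adjusted p under 0.05, where 14.8% of all regions were. Every RANKL library lay above every ENR library in 302 of the 303, against 25.0% of all regions. These counts follow from the rule, and nothing is read from them. The fitted log2 fold of the 303 regions had a median of 1.60 with a median standard error of 0.20.

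The 1 region whose libraries overlapped lies 515 kb from Cntn5 (chr9:11419553-11421553), with 6.56, 16.0 and 17.4 CPM in RANKL libraries and 5.15, 6.88 and 5.56 CPM in ENR libraries. RANKL library 1 fell within the ENR range there. It is also 1 of the 2 regions that hold 2 ONECUT2 sites each, the other lying 17.9 kb from Clec2d, which encodes a C-type lectin-like ligand of natural killer cell receptors. Each pair shares 1 acetylation value, so the 305 sites carry 303 separate ones.

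The largest ratios came from regions with little H3K27ac in ENR medium. The region with a ratio of 27.7 (chr3:26530546-26532546) lay 106 kb from its nearest coding gene, Spata16, and held 105.3, 94.4 and 97.6 CPM in RANKL libraries and 3.50, 3.82 and 3.41 CPM in ENR libraries. The next lay 26.0 kb from Zc3h15 (chr2:83689675-83691675), with 53.9, 44.3 and 45.9 CPM in RANKL libraries and 1.29, 1.75 and 2.69 CPM in ENR libraries. Inside Slc35f4 (chr14:49457726-49459726) the RANKL libraries held 49.9, 39.0 and 50.2 CPM and the ENR libraries 1.29, 2.95 and 1.61 CPM. All 10 regions with the largest ratios had at least 37.2 CPM in every RANKL library and at most 5.38 CPM in every ENR library. Of these regions, 1 lay inside Ptprr, a receptor-type tyrosine phosphatase gene, with 94.8 ± 4.86 CPM in RANKL and 4.87 ± 0.57 CPM in ENR organoids (SD, n = 3 each), and 1 inside Xylt1, a xylosyltransferase gene of proteoglycan synthesis, with 63.4 ± 0.77 CPM in RANKL and 3.70 ± 0.76 CPM in ENR organoids. The others lay inside Gm51415, near Btbd11, Cops8 (a subunit of the COP9 signalosome) and Kcnj15 (an inward-rectifier potassium channel), and 139.5 kb from Gm3985. Their ratios were 14.1 to 22.9.

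**Figure D1:**
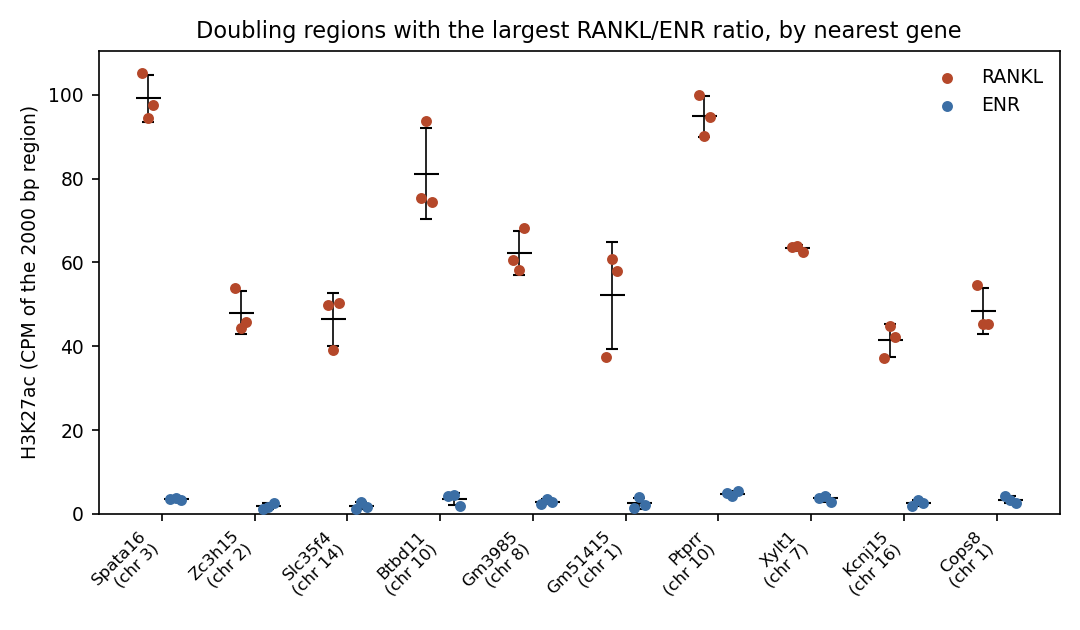
H3K27ac in each library (points, CPM) of the 10 doubling regions with the largest ratio, named by the nearest protein-coding gene, with the mean and SD of the 3 RANKL and the 3 ENR libraries. ENR libraries sit near 0 at every region and RANKL libraries between 37.2 CPM (Kcnj15) and 105.3 CPM (Spata16).

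The strongest acetylation lay inside Traf2, which encodes an adaptor that binds TNF-family receptors. That region (chr2:25533378-25535378) held 152.6, 143.9 and 143.2 CPM in RANKL libraries and 12.3, 15.2 and 19.5 CPM in ENR libraries, a ratio of 9.35. Its ONECUT2 signal was small by comparison with other doubling sites, since the authors' deposited table lists 13.7 reads in RANKL and 2.32 in ENR organoids (log2 fold 2.27). The regions with the strongest acetylation had a wide span of ratios. Those 106 kb from Spata16 (ratio 27.7) and inside Ptprr (19.5) were also among the 10 with the highest RANKL CPM. Near Pkdcc, which encodes a secreted protein kinase, the region had 107.8 ± 4.87 CPM in RANKL and 48.1 ± 1.80 CPM in ENR organoids (SD, n = 3 each), a ratio of 2.24. The region near Lyrm9 had 89.4 ± 2.25 CPM in RANKL and 42.7 ± 1.03 CPM in ENR organoids, a ratio of 2.09. Inside Abcc8, the sulfonylurea receptor gene, the means were 95.3 ± 2.68 CPM in RANKL and 22.7 ± 3.65 CPM in ENR organoids. The regions near Zswim4, 1700016C15Rik and Ccdc190 were of the same order, at 103.0, 101.3 and 90.8 CPM in RANKL organoids.

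Regions close to the thresholds show how fine the border was. The doubling regions with the smallest ratios lay near Slc4a7 (2.002) and inside Rbms3 (2.004) and Vcl (2.006), while those just left out, inside Prkar2b, Gdpd5 and Ugt1a6b, had ratios of 1.995, 1.985 and 1.984. At the 10 CPM limit, the RANKL means of the last regions kept were 10.03, 10.04 and 10.19 CPM and those of the first left out 9.95, 9.87 and 9.86 CPM.

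Since the regions were chosen on the means, their ratios in single experiments follow in part from the rule and are a description. Within the experiments numbered in the labels, the ratio of RANKL to ENR CPM over the 303 regions had a median of 3.46, 3.27 and 3.70 in experiments 1, 2 and 3, and 228 regions reached 2 in all 3. The sites were also chosen again on each pair of experiments and read in the third, whose values had no part in that choice. Most were again doubling sites: 281 of 301 without experiment 1, 293 of 314 without experiment 2 and 280 of 307 without experiment 3. The experiment left out belongs to the same H3K27ac contrast on the same line. Its values describe how alike the experiments were and are no independent test of the doubling sites. Chosen without experiment 1, 298 regions had a median ratio of 3.50 in experiment 1, and 254 of them (85.2%) reached 2. Chosen without experiment 2, 252 of 312 regions (80.8%) reached 2 in experiment 2, with a median of 3.16. Chosen without experiment 3, 257 of 306 (84.0%) did so in experiment 3, with a median of 3.51. In the held-out experiments the median was 3.16 to 3.51, close to the 3.23 to 3.45 in the experiments that chose the regions. Of all regions with at least 10 CPM in the RANKL libraries of the choosing experiments, 10.7% to 13.3% reached 2 in the experiment left out.

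**Figure D2:**
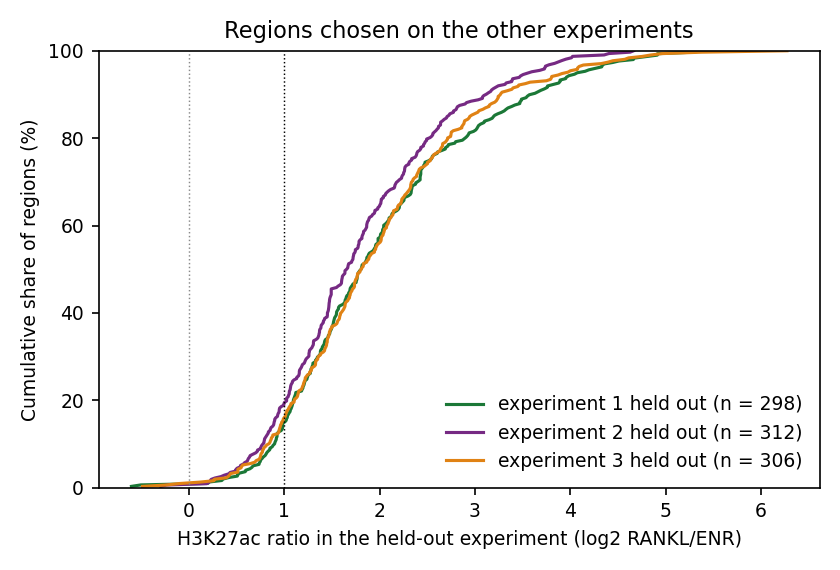
Cumulative share (%) of the regions chosen on 2 experiments against their log2 ratio of RANKL to ENR CPM in the experiment left out, 1 line for each experiment. The dotted lines mark equal levels (0) and doubling (1), and between 80.8% and 85.2% of regions lie at or above doubling.

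ONECUT2 levels were not part of the choice, beyond the listing of each site by the authors. That listing is itself a filter on the ONECUT2 change, since every listed site had an FDR of at most 0.0496 in the authors' comparison of the arms. The folds compared below are thus those of sites that passed it, in every class. The authors' deposited table gives 1 level per arm and site and no values per library. In the authors' deposited table all 305 doubling sites were higher in RANKL organoids. So were 7261 of all 7268 listed sites, so that direction says nothing particular about the doubling sites. Those 7261 are 93.9% of the 7734 sites that its p-values imply were tested, and the direction of unlisted sites is not known. How the authors normalised these levels is not known here, and every listed fold and level depends on it. The size of the listed change differed between classes of site, which were all normalised together. The authors' deposited table gives the doubling sites a median log2 fold of 2.71 (quartiles 2.22 and 3.34), that is 6.53-fold, and the other 1896 distal sites in an H3K27ac region one of 1.70 (1.31 and 2.13). A log2 fold of at least 2 was listed for 250 of the 305 sites (82.0%) in the authors' deposited table, against 41.9% of all 7268 listed sites. Sites are not replicates, so these medians and shares are descriptions without a test.

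The medians of the 2 kinds of site differed more in the ENR arm than in the RANKL arm. In the authors' deposited table the median level in RANKL organoids was 32.9 reads at doubling sites and 34.7 at the other distal sites in a region. In ENR organoids the authors' deposited table has medians of 4.05 reads at doubling sites and 9.42 at those other sites. The listed ENR level was 0 on the log2 scale, its lowest value, at 10 doubling sites (3.28%) and at 0.812% of all listed sites in the authors' deposited table. Without those 10, the 295 other doubling sites had a median log2 fold of 2.69 and a range of 0.76 to 5.55 in the authors' deposited table.

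Other classes of listed site had smaller changes. By the authors' deposited table the median log2 fold was 1.63 at the 1262 distal sites whose region stayed within 2-fold, 1.93 at 592 in regions under 10 CPM and 1.96 at 3852 outside any region. It was 1.70 at the 1205 sites within 2 kb of a gene end and 1.11 at the 42 distal sites whose region halved, in the authors' deposited table. The doubling sites made up 38 of the 100 sites with the lowest p-values of the authors' deposited table and 131 of the 727 with the largest folds. That is 43.0% of the doubling sites, against 2.93% of the sites within 2-fold.

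**Figure D3:**
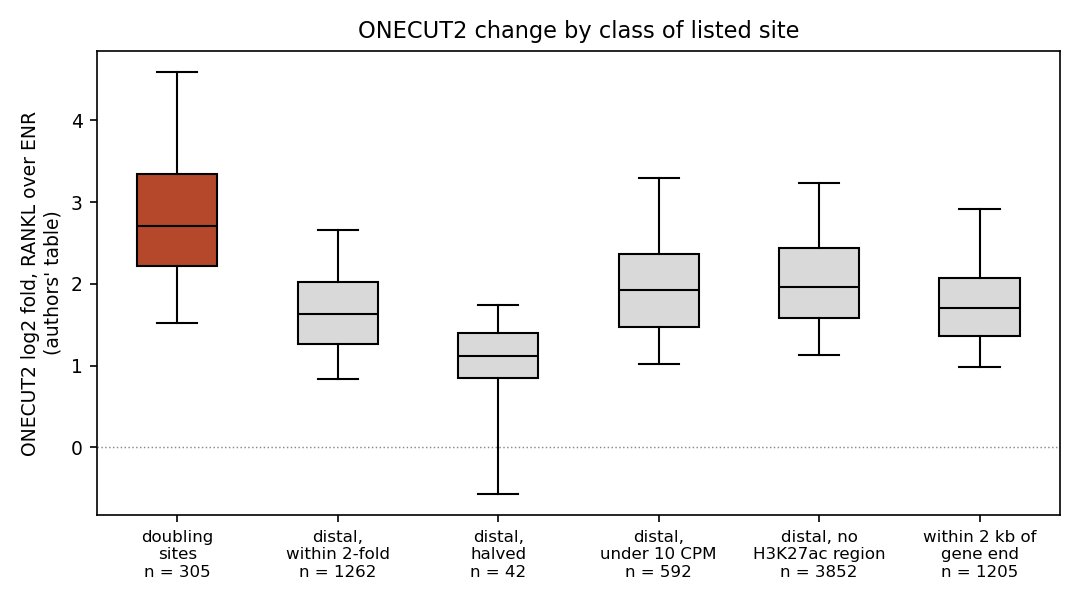
Log2 fold of ONECUT2 (RANKL over ENR organoids, from the authors' deposited table) by class of listed site; boxes are quartiles with the median and whiskers the 5th and 95th percentiles. The doubling sites have a median of 2.71, and the medians of the other classes lie between 1.11 and 1.96.

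The ONECUT2 fold followed the acetylation ratio on both sides of the threshold. Over distal sites in regions of at least 10 CPM, the median log2 fold in the authors' deposited table was 1.11 where the acetylation ratio was under 0.5, 1.44 from 0.5 to 1, 1.72 from 1 to 1.5 and 2.04 from 1.5 to 2. Among doubling sites the median in the authors' deposited table was 2.43 for ratios of 2 to 3, 2.70 for 3 to 5 and 3.34 for 5 and more. Across the 305 doubling sites the log2 acetylation ratio and the log2 ONECUT2 fold had a Pearson correlation of 0.46 and a Spearman correlation of 0.46, and across all 1609 distal sites in regions of at least 10 CPM 0.67 and 0.59. Both measures come from the same organoid arms, sites are not independent, and the 2 RANKL levels correlated at 0.12 across the 305 sites. There was no step in the ONECUT2 fold at the doubling threshold.

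**Figure D4:**
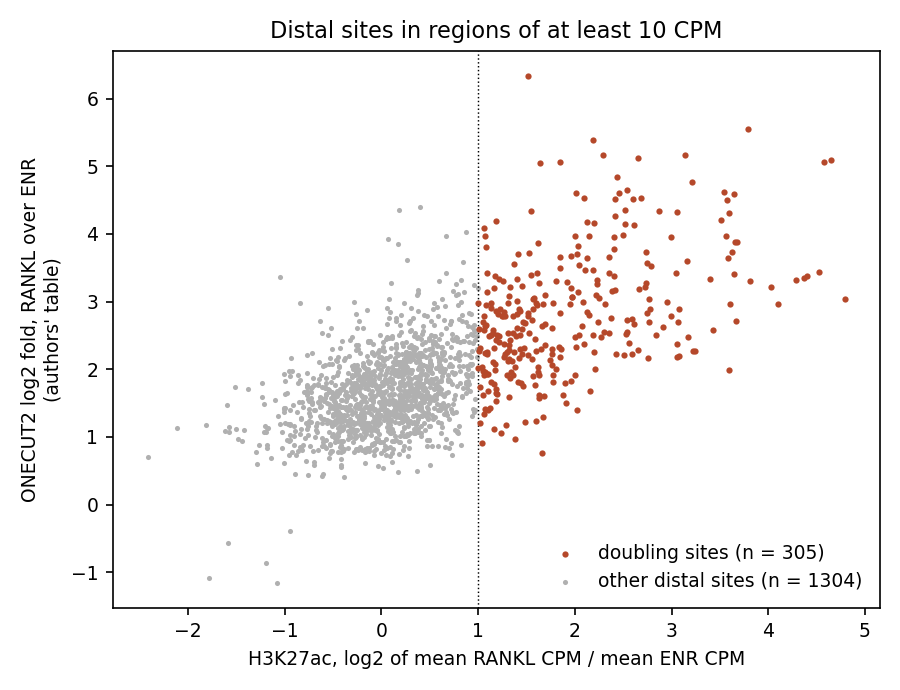
Log2 ratio of H3K27ac CPM (x axis) against log2 fold of ONECUT2 from the authors' deposited table (y axis) for 305 doubling sites and 1304 other distal sites in regions of at least 10 CPM. The line at 1 is the doubling threshold, which set the colours, and the point at 6.33 is a site listed at 0 in ENR organoids.

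The level of acetylation in ENR medium moved with the class as well, because doubling regions were weaker there. Sites were also read within bands of ENR acetylation. Between 5 and 10 CPM the median log2 fold of ONECUT2 in the authors' deposited table was 2.68 at 111 doubling sites and 1.90 at 140 other distal sites. Between 10 and 20 CPM the authors' deposited table gives 2.37 at 58 doubling sites and 1.62 at 455 others, and from 20 CPM up 2.48 at 22 and 1.57 at 709. Below 5 CPM there were 114 doubling sites, with a median of 3.12 in the authors' deposited table, and there were no others, since a region under 5 CPM in ENR that reached 10 CPM met the rule. In each band that held both kinds of site, the doubling sites had the higher median. ENR levels need not match within a band. Between 5 and 10 CPM, the other sites had to reach 10 CPM in RANKL organoids with a ratio under 2. The part of the ENR level in the difference was not tested.

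The doubling site with the most ONECUT2 reads among those listed at 0 in ENR organoids lay 1152 kb from Cntnap5a, at 146.8 reads in RANKL organoids in the authors' deposited table. Its region (chr1:114531914-114533914) had modest acetylation, with 13.8, 11.1 and 10.5 CPM in RANKL libraries and 4.05, 4.04 and 4.30 CPM in ENR libraries. The largest fold with a level above 0 in both arms was inside Cntnap2, a neurexin-family gene, with 98.0 reads in RANKL and 1.33 in ENR organoids in the authors' deposited table. There the acetylation ratio was large too, since the region (chr6:45883630-45885630) had 36.4, 35.0 and 37.7 CPM in RANKL libraries and 2.58, 3.49 and 1.79 CPM in ENR libraries. A site inside Med13, a gene of the Mediator kinase module, had 152.9 reads in RANKL and 3.01 in ENR organoids in the authors' deposited table. The other 7 of the 10 largest folds had log2 folds of 5.04 to 5.17 in the authors' deposited table. These sites lay near Mef2c, Glrp1 and Zc3h15, inside Slc35f4 and Gramd4, 103.7 kb from Hs6st1 and 202.7 kb from Ofcc1. Their regions ranged from 11.8 CPM (Ofcc1) to 75.3 CPM (Gramd4) in RANKL organoids.

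The 2 sites with the lowest p-values of the whole authors' deposited table were both doubling sites. The first, 4.07 kb from Glg1 (chr8:111148819-111149219), which encodes a Golgi glycoprotein, had 221 ONECUT2 reads in RANKL and 17.0 in ENR organoids, with an FDR of 2.04e-34 in the authors' deposited table. Its region had 77.9, 94.7 and 87.1 CPM of H3K27ac in RANKL libraries and 10.7, 9.06 and 9.32 CPM in ENR libraries. The second, 8.67 kb from the potassium channel gene Kcna1 (chr6:126627397-126627797), had 176 reads in RANKL and 6.28 in ENR organoids in the authors' deposited table. The third-ranked site lay 3.48 kb from Mef2c, a MADS-box transcription factor gene, with 189 reads in RANKL and 4.54 in ENR organoids in the authors' deposited table. Acetylation there was among the lower values, at 9.47, 17.8 and 15.9 CPM in RANKL libraries and 3.31, 3.71 and 1.79 CPM in ENR libraries. The sites of Myo9b and Slc35f4 ranked 5 and 6 in the authors' deposited table.

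Not every doubling site had a large ONECUT2 change. The smallest log2 fold in the authors' deposited table was 0.76, at a site 13.5 kb from Smndc1 whose acetylation ratio was 3.16. A site over 100 kb from its nearest coding gene, Tmem68, and a site inside Slc17a8 were also under 1, at 0.92 and 0.97 in the authors' deposited table. These 3 were picked after their values were seen.

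Listed ONECUT2 sites lay in a small share of the regions that doubled. Of 2765 distal regions that met the acetylation rule, 297 (10.7%) held a distal listed site, against 8.14% of 14869 distal regions within 2-fold and 4.74% of 886 that halved. The share was 9.59% for ratios of 2 to 3, 10.5% for 3 to 5, 12.1% for 5 to 10 and 17.3% (26 of 150) for 10 and more. Doubling regions with and without a site had like ratios, with medians of 3.34 and 3.10. Sites were listed on the difference of ONECUT2 between the same arms, and 7261 of the 7268 were higher in RANKL organoids. The shares therefore depend in part on the listing, and nothing further is read from them.

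Doubling sites lay farther from genes than sites whose acetylation stayed within 2-fold. Their median distance to the nearest gene end was 36.4 kb, against 22.8 kb, and 118 of them (38.7%) lay inside a gene span, against 52.7%. No protein-coding gene lay within 100 kb of 64 sites (21.0%), against 7.77% of sites within 2-fold. The distal sites in regions under 10 CPM were placed much like the doubling sites, with a median of 40.1 kb, 36.5% inside a gene span and 20.1% with no gene within 100 kb. The other 241 were nearest to 226 genes, of which 213 had 1 doubling region, 12 had 2 and Akap13, a gene for a kinase-anchoring protein, had 3. The Akap13 regions all lay inside the gene, with ratios of 2.50, 4.13 and 4.81. Sites sat close to the middle of their regions, at a median of 119 bp from the centre, against 130 bp for the other distal sites in a region. Doubling regions were mostly apart from each other, since 20 of the 303 had another within 50 kb. By chromosome, they took between 8.74% (chromosome 19) and 20.7% (chromosome 7) of the distal sites in a region.

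Regions next to doubling regions had smaller ratios, and the smaller the farther they lay. Leaving out the doubling regions themselves, the median acetylation ratio of neighbours was 1.59 within 5 kb (20 regions), 1.51 from 5 to 10 kb, 1.33 from 10 to 25 kb, 1.26 from 25 to 50 kb and 1.19 from 50 to 100 kb. Around distal sites within 2-fold the medians in the same bands were 0.98, 0.97, 0.99, 1.02 and 1.02. Of neighbours at 5 to 10 kb, 27.8% met the doubling thresholds around doubling regions and 4.69% around sites within 2-fold. These ratios use the same H3K27ac contrast that chose the doubling regions and are a description.

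**Figure D5:**
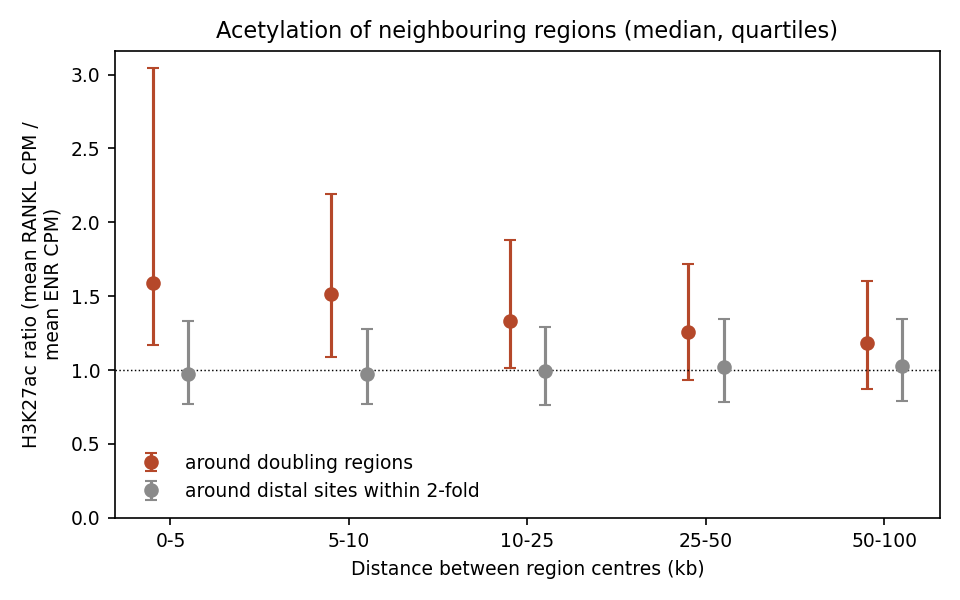
Ratio of mean RANKL to mean ENR CPM of H3K27ac in neighbouring regions (point: median; bar: quartiles) by distance between region centres (kb), around doubling regions and around distal sites whose region stayed within 2-fold. The medians around doubling regions go from 1.59 in the nearest band to 1.19 in the farthest, and those around the other sites lie between 0.97 and 1.02.

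At the ends of the nearest genes the acetylation ratio was mostly under 2. Leaving out the regions that placed a site in either class, 164 of the 226 genes had an H3K27ac region within 2 kb of an end, and the summed ratio there had a median of 0.90, with 97 genes below 1. In 12 genes (7.32%) it reached 2, against 18 of 792 genes (2.27%) nearest to sites within 2-fold, whose median was 0.84. The largest ratios of the 12 were at Fndc7, with 52.3 CPM in RANKL and 5.87 CPM in ENR organoids, and Dclk1, with 10.2 CPM in RANKL and 3.11 CPM in ENR organoids. The gene of the transcriptional regulator Id2 had 93.2 CPM in RANKL and 37.5 CPM in ENR organoids at its ends. A site may act on another gene than the nearest, and no RNA was measured here.

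Genes of RANKL signalling were among the nearest genes. The receptor gene itself, Tnfrsf11a, which encodes RANK, held 1 doubling region (chr1:105783397-105785397), with 81.2, 83.6 and 72.0 CPM in RANKL libraries and 32.9, 29.8 and 36.0 CPM in ENR libraries, a ratio of 2.40. Its ONECUT2 site had 17.6 reads in RANKL and 2.04 in ENR organoids in the authors' deposited table. Inside Map3k14, which encodes the NF-kB-inducing kinase NIK, the region (chr11:103225388-103227388) had 74.7, 62.1 and 67.1 CPM in RANKL libraries and 24.1, 20.6 and 21.2 CPM in ENR libraries. RANKL libraries lay above ENR libraries at both genes, as in 302 of the 303 doubling regions and 25.0% of all regions, which follows from the rule. The Map3k14 site was among the strongest, with 250 ONECUT2 reads in RANKL and 80.3 in ENR organoids in the authors' deposited table. Map3k14 and Traf2 were the 2 of 30 NF-kB genes with an H3K27ac region that had a doubling site nearest to them, beside 226 of 16207 (1.39%) protein-coding genes with a region. Among genes with a distal listed ONECUT2 site they were 2 of 10 NF-kB genes, beside 6.43% of 3517 over all genes.

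Of 27 M cell genes with a region, 2 had a doubling site, Tnfrsf11a and Esrrg, which encodes an orphan nuclear receptor needed for M cell maturation. The Esrrg region held 6.56, 11.7 and 12.8 CPM in RANKL libraries and 3.68, 5.13 and 2.51 CPM in ENR libraries. It is close to the 10 CPM limit, and its lowest RANKL library is near its highest ENR library. The M cell transcription factor genes Spib and Sox8 had no doubling site nearest to them, and neither had Onecut1 or Onecut2. Over all protein-coding genes with a region, 226 of 16207 (1.39%) had a doubling site. Among genes with a distal listed ONECUT2 site it was 2 of 11 M cell genes, beside 6.43% of 3517 over all genes. A list this small cannot be compared, and absences from it say little.

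Genes of secretory cells and tuft cells appeared singly. Of 14 goblet genes with a region, 2 had a doubling site. One was Tff3, the trefoil factor gene, with 18.6, 26.4 and 26.1 CPM in RANKL libraries and 10.3, 8.08 and 7.53 CPM in ENR libraries. The other was Clca1, which encodes a secreted mucus component, at 37.0 ± 2.71 CPM in RANKL and 16.3 ± 1.81 CPM in ENR organoids (SD, n = 3 each). Of 14 tuft genes, 2 had one, the kinase gene Dclk1 with a ratio of 2.24 and Sh2d6 with 2.09. Defa21, an alpha-defensin gene of Paneth cells with near-identical copies, was the 1 of 11 Paneth genes, at a ratio of 2.01. Tac1, which encodes the precursor of substance P, was the 1 of 13 enteroendocrine genes, at a ratio of 3.08. Over all protein-coding genes with a region the share was 226 of 16207 (1.39%). Among genes with a distal listed ONECUT2 site it was 2 of 5 goblet, 2 of 6 tuft, 1 of 1 Paneth and 1 of 1 enteroendocrine genes. Over all 3517 genes with such a site it was 6.43%, and these lists are too small to compare.

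Single genes of 4 further lists had a doubling site. They were the intestinal transcription factor gene Klf6 (1 of 31 genes with a region), the Wnt-related stem cell gene Tnfrsf19 (1 of 23), the EGF receptor ligand gene Areg (1 of 21 fetal and regenerative genes) and Acadl, a gene of fatty acid oxidation (1 of 21). Their ratios were 2.54, 2.64, 2.52 and 2.06. The region near Areg had 22.6, 28.0 and 28.7 CPM in RANKL libraries and 11.2, 11.7 and 8.61 CPM in ENR libraries. None of 25 enterocyte genes, 18 AP-1 and NFAT genes, 16 distal and 13 proximal small intestinal genes, 14 Notch genes, 19 interferon and antigen presentation genes or 17 cell cycle genes with a region had one. Only 14, 4, 3, 9, 6, 4 and 1 of them, in that order, had any distal listed ONECUT2 site, so these absences say little. Over all protein-coding genes with a region, 226 of 16207 (1.39%) had a doubling site. Among genes with a distal listed ONECUT2 site, Klf6 was 1 of 22 on its list, Tnfrsf19 1 of 15, Areg 1 of 11 and Acadl 1 of 5. The share over all protein-coding genes with such a site was 6.43% of 3517.

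Markers of other cell types were read the same way. None of the 6 leukocyte and 9 endothelial markers with a region had a doubling site, and 1 of 9 mesenchymal markers did, Dcn, which encodes the matrix proteoglycan decorin (13.6 ± 2.44 CPM in RANKL and 2.04 ± 1.03 CPM in ENR organoids, SD, n = 3 each). Of 6 epithelial markers, Epcam had one, at 87.8 ± 7.67 CPM in RANKL and 41.7 ± 4.33 CPM in ENR organoids. Only 1 leukocyte, 4 endothelial, 4 mesenchymal and 4 epithelial markers had any distal listed ONECUT2 site, so the absences say little. Over all protein-coding genes with a region, 226 of 16207 (1.39%) had a doubling site. Over the 3517 genes with a distal listed site the share was 6.43%. Summed H3K27ac at the ends of the leukocyte markers was 117.4 to 120.9 CPM in RANKL libraries and 103.1 to 112.8 CPM in ENR libraries, from the 4 of 10 that have a region there, and neither Ptprc nor Cd3e has one. Mesenchymal sums were 13.5 to 20.4 CPM in RANKL and 11.0 to 17.9 CPM in ENR libraries (3 of 10 markers), and endothelial sums 13.1 to 17.4 CPM in RANKL and 17.7 to 18.8 CPM in ENR libraries (2 of 10). The 6 epithelial markers summed to 557.9 to 578.0 CPM in RANKL libraries and 704.0 to 787.2 CPM in ENR libraries. The part of cell makeup in the doubling was not tested.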

How the data were processed

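Raw H3K27ac read counts of 3 RANKL and 3 ENR libraries in 55050 regions were deposited by the authors. For ONECUT2 the authors deposited a DiffBind table, per the submitters' processing notes, with a log2 level per arm, a log2 fold, a p-value and an FDR per site, per the file headers. Its levels are printed here as 2 to the power of the listed value, and at the doubling sites its log2 fold is smaller than the difference of its log2 levels by 0.0058 to 0.87 (median 0.21), so a ratio of printed levels exceeds the listed fold. Per the submitters' processing notes, mm10 was the build. Aligner, peak caller and ONECUT2 normalisation were not given in the sources used here. Input libraries, per-library ONECUT2 values and a second, scaled H3K27ac table were not used here.

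CPM is the count over the column sum, times 1e6. Counts were tested over the whole table with edgeR 4.0.16 (R 4.3.3; TMM, filterByExpr, quasi-likelihood), checked on simulated data, with DESeq2 1.42.0 as an alternative. Libraries of the same arm differed by more than sampling noise. With TMM the median log2 ratio of all regions was 0.06 in place of 0.16. The median coefficient of variation of the 303 regions was 10.9% in RANKL and 18.3% in ENR libraries, which set the precision. Coordinates are as deposited. Gene spans and ends came from RefSeq (GRCm38.p6), 21896 protein-coding genes, with spans within 100 kb counted as nearest. Sites named are the 10 largest by ratio, RANKL CPM and ONECUT2 fold, the 5 lowest by FDR, regions with several sites, the gene with most, and members of the gene lists. Sites, lists and rules were chosen with earlier results of these data known. Each library carries an experiment number in its label, in either arm, which is the pairing used, and deviations of same-numbered libraries correlated at 0.014, -0.027 and -0.0073. Sequence under the other doubling sites was not analysed here.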

Additional observations from a re-analysis of the deposited data

How the results depend on the processing

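The number of doubling sites follows the thresholds. It was 195 with a minimum of 20 CPM in RANKL organoids, 483 with a ratio of 1.5 and 175 with a ratio of 3. Apart from the paired alternative, it stayed under the others between 250 (over 10 kb from gene ends) and 357 (minimum of 5 CPM), with 272 by TMM-normalised library sizes and 298 to 317 when 1 library was left out. With the experiments paired (replicate block), 229 sites had a ratio of at least 2 in each experiment, and edgeR with the replicate block called all 303 regions higher. The edgeR count was 302 or 303 with any library left out, and 303 with library size only, with no filter on low counts and with DESeq2. The median ONECUT2 log2 fold of the doubling sites was 2.42 with a ratio of 1.5, 3.04 with a ratio of 3 and 2.69 to 2.88 under the other alternatives. RANKL libraries are shallower than ENR libraries, and at 10 CPM a RANKL library holds few reads per region. ONECUT2 levels come without replicate error.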
